A study of Mus musculus with 10 samples.

Results

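A set of 27 protein-coding autosomal genes was transcribed in every KP library and near silent in every dFLEx library. The genes were chosen by their measured levels. A gene entered the set when it reached at least 5 CPM (the gene's count on a scale where each library sums to 1000000) in all 3 KP libraries and stayed below 1 CPM in all 6 dFLEx libraries. They were 27 of 56750 counted features and of 20530 autosomal protein-coding genes, and 0.283% of the 9544 such genes that reached 5 CPM in every KP library. The opposite pattern, at least 5 CPM in every dFLEx library and below 1 CPM in every KP library, was held by 36 genes. Because the levels of both groups fixed the membership, the differences between dFLEx and KP tumors that follow for these 27 genes are a description and carry no test.

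Bulk RNA was sequenced from sarcomas of 2 mouse models. Tumors 170019, 170024 and 170025 came from mice of the genotype dFLEx CDS +/-, in which a CAG promoter in the Rosa26 locus drives the CIC::DUX4 fusion of CIC-rearranged sarcoma once Cre and FLP have both acted. Mice of 6 to 12 weeks received plasmids for Cre and FLP, each under a CAG promoter, by electroporation into the gastrocnemius muscle of the hind limb. Tumors 3800 and 3802 came from KP mice whose genotype includes p53fl/fl, alleles from which Cre removes p53. The study used both sexes. The mouse strain of either model, and the site, age and induction of the KP tumors, are not given in the sources used here, so tumor model, strain, site and induction cannot be told apart in any comparison. RNA of each tumor was split into duplicates, so 2 libraries of a tumor measure technical spread and the tumor is the unit of replication, with n = 3 dFLEx and n = 2 KP. Of 10 labelled libraries 9 were used, since the second one of 3802 is not analysed here.

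The genes of this set do not form 1 pathway. Several belong to systems in which a cell signals to its neighbours. Amphiregulin and epiregulin (Areg, Ereg) are ligands of the epidermal growth factor (EGF) receptor family, made as membrane-bound precursors and shed by proteases, and R-spondins such as Rspo4 strengthen Wnt signalling through Lgr receptors. Others are known from neurons (Nefl, Scn9a, Grid1), from mast cells (Tpsab1, Mcpt2) or from the patterning of embryonic tissues (Lhx8, Irx2, Rorb).

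Promoter sequence was examined because the genes were read as on in one model and near zero in the other. RefSeq promoters (GRCm38.p6, 250 bases before to 50 bases after the start) were matched for 14 of the 27 genes. The 120 bases before the start are shown for Areg, the member with both a cyclic AMP response element and a TATA box, for Rspo4, the member with the lowest dFLEx level, and for Rbp2, the member with a TATA box on each strand. Capitals mark the motif matches, in the letters of the strand shown.
Areg, chr5:91139479-91139598, + strand: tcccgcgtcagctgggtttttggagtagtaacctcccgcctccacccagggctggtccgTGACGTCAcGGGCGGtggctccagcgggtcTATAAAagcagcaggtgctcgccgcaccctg
Rspo4, chr2:151842807-151842926, + strand: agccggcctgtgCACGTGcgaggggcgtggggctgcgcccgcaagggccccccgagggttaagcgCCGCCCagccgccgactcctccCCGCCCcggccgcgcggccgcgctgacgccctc
Rbp2, chr9:98490417-98490536, + strand: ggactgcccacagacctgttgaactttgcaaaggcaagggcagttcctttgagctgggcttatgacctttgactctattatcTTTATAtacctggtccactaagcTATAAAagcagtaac

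In the Areg promoter the capitals are the cyclic AMP response element (TGACGTCA, bases -61 to -54 from the start), a GC box (GGGCGG, -52 to -47) and a TATA box (TATAAA, -31 to -26). In Rspo4 they are an E-box (CACGTG, -108 to -103) and 2 GC boxes read on the opposite strand, and in Rbp2 a TATA box on each strand. Searched on both strands, TATAAA was present in 3 of the 14 member promoters (Areg, Rbp2 and Hal) and in 11.3% of 15311 promoters, and TGACGTCA in Areg among the members and in 2.55% of all. AP-1 sites (TGANTCA) were found in 2 of 14 members (Gm14137 and Hal) and in 6.77% of all promoters. The E-box occurred in Rspo4 among the members and in 8.48% of all promoters. CCAAT was present in 6 of 14 members and 38.8% of all, GGGCGG in 8 of 14 and 51.3%, and the TEAD motif GGAATG in 1 of 14 and 13.2%.

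The octamers TGAATGAA and TGAATGGA, which the CIC part of the fusion protein is known to bind, were in none of the 14 windows. They were in 1.03% and 0.947% of all promoters. No other form of the octamer was searched, so these counts do not cover every CIC site. The ETS motif CCGGAAGT was in none of the 14 and in 5.89% of all. These counts describe letters in a window of 300 bases and nothing further. The 14 matched member promoters had a lower median CpG ratio than those of other genes on in KP. Their share of CpG-rich promoters was near that of all promoters, and neither was tested. The median ratio of observed to expected CpG was 0.525 over the 14 members, 0.795 over 7517 other genes at 5 CPM or more in every KP library and 0.640 over all 15311. CpG-rich promoters were 7 of the 14 (Rspo4, Epha7, Areg, St8sia2, Irx2, Glp1r and Rorb), which is 50%, against 73.8% of those other KP genes and 50.7% of all. The lowest ratio was 0.0723, in Ndst3, and the highest 0.833, in Epha7.

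Library totals ran from 20503474 to 46302223 counts, at which 3 counts, the limit allowed by a count of 0, equal 0.0648 to 0.146 CPM. Reads are not independent molecules, so this limit and the intervals below describe counting error alone. The CIC_DUX4 feature stood between 89.2 and 412 CPM in the 6 dFLEx libraries, at 0 in both libraries of 3800 and at 0.293 CPM in 3802, so the labels matched the transgene. The library of 3802 stood apart. It had counts in 36904 features, against 24280 to 31768 in the others. Olfactory and vomeronasal receptor genes outside the set, 1545 genes that sarcomas are not known to use, averaged 0.127 CPM per kilobase (kb) of exon in 3802 and 0.00242 to 0.0230 in the other 8 libraries. In 3802, 225 of them reached 1 CPM and 4 reached 5 CPM, against 0 to 10 and 0 elsewhere. The part of this raised low-level signal in the results was not tested. The levels of named genes are therefore given for 3800 and 3802 separately, beside any mean over both.

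**Figure D1:**
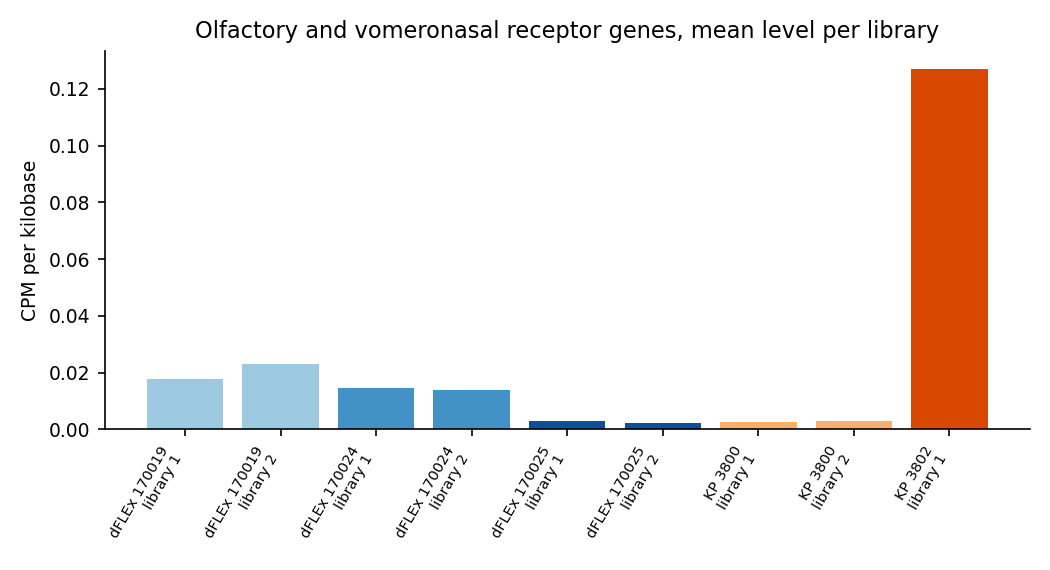
Mean level of 1545 olfactory and vomeronasal receptor genes outside the set in each library, in CPM per kilobase of exon, with 1 bar per library and blue for dFLEx, orange for KP. The bar of 3802 stands at 0.127, against at most 0.0230 in the others.

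Per kilobase, the 27 genes lay 3.64 to 254 times above that receptor level in 3802 (median 24.6). Rorb was lowest and Tpsab1 highest by this measure. When the KP minimum was raised in each library by 10 times the receptor level, an alternative chosen after seeing the data, 13 of the 27 genes remained. The 14 that did not were Epha7, Ereg, Gal3st3, Glp1r, Gm14137, Grid1, Ly6h, Mcpt2, Ndst3, Or6c212, Rorb, Rspo4, Scn9a and St8sia2. When the receptor level was instead subtracted from each gene by its length before the rule was applied, also chosen after seeing the data, 24 genes met it, 22 of them members. Epha7, Grid1, Ndst3, Rorb and St8sia2 were lost by that alternative as well. In 3800 the receptor level was 0.00269 and 0.00286 CPM per kilobase. That all 27 genes had at least 5 CPM there follows from the rule.

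Mean KP levels over both tumors ran from 6.85 to 124 CPM (median 15.5, with medians of 14.1 in 3800 and 7.80 in 3802), and mean dFLEx levels from 0.00406 to 0.714 CPM (median 0.289). The ratio of KP mean to the pooled dFLEx level ran from 13.1 (Rorb) to 3840 (Rspo4), with a median of 60.1. Near silent did not mean absent. Of 162 values for a gene in a dFLEx library, 21 were 0 and 41 were at or under 3 counts, and 23 of the 27 genes had counts in all 3 dFLEx tumors. Added together, the 27 genes made up 9.25, 8.82 and 7.48 CPM in 170019, 170024 and 170025, and 887 and 382 CPM in 3800 and 3802. These are bulk samples, in which fewer cells of a type and less RNA per cell cannot be told apart.

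**Figure D2:**
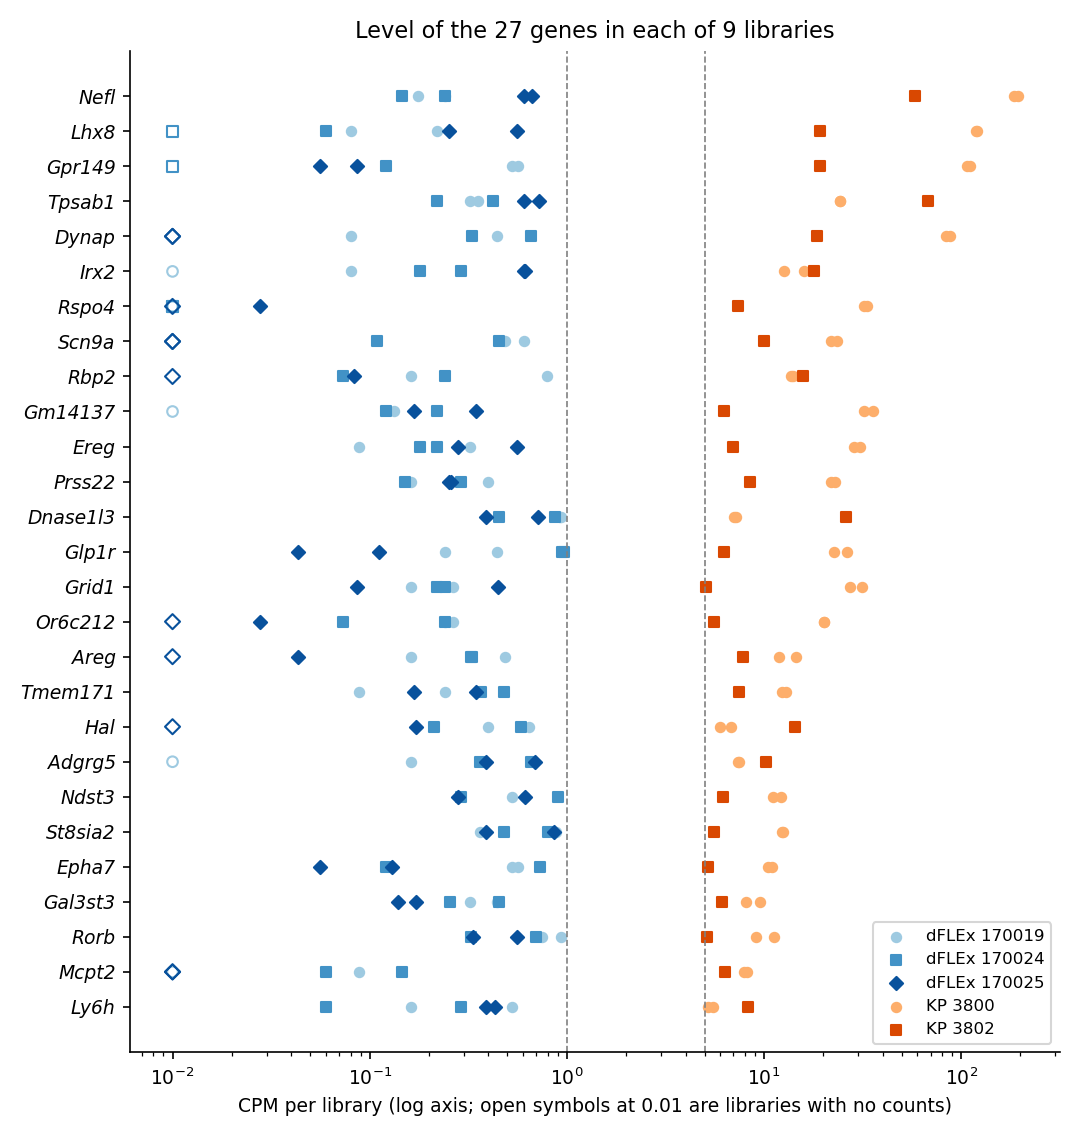
CPM of each of the 27 genes (rows, ordered by KP level) in each of the 9 libraries on a log axis, with blue symbols for the dFLEx tumors, orange symbols for the KP tumors and dashed lines at 1 and 5 CPM, the limits that chose the genes. Open symbols are libraries with no counts, and the gap between the dashed lines is empty because the rule made it so.

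The 27 genes had a median KP level of 15.5 CPM, below the median of the other genes on in KP. Their KP level per kilobase ran from 0.683 CPM per kb (Rorb) to 42.7 CPM per kb (Dynap). Ranked by level per kilobase among all 20530 autosomal protein-coding genes, they lay between the 42.3 and the 94.2 percentile, with a median of 66.1. The other 9517 genes on in KP had a median KP level of 40.8 CPM, and a median exonic length of 4701 bases against 3314 bases for the set.

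Of the secreted ligands, Ereg (chr5:91222481-91241505, + strand, GRCm39) had 0.323 and 0.0881 CPM in the libraries of 170019, 0.181 and 0.219 in 170024 and 0.562 and 0.279 in 170025, against 28.5 and 30.6 in 3800 and 6.93 in 3802. Areg lies 45953 bases further along (chr5:91287458-91296291, + strand). It had 0.162 and 0.485 CPM in 170019, 0.332 and 0.328 in 170024, 0.0432 and 0 in 170025, against 14.5 and 11.9 in 3800 and 7.80 in 3802. Both ligands were at least 10 times higher in each KP library than in any dFLEx library. The KP means were 18.3 ± 16.1 CPM for Ereg and 10.4 ± 3.64 for Areg (SD, n = 2), and the dFLEx means 0.282 ± 0.135 and 0.224 ± 0.173 CPM (SD, n = 3). Exonic bases of Ereg overlap the antisense gene Gm19610, and the counting ignored strand.

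Betacellulin (Btc), another EGF family ligand, is the next gene after Areg, 208829 bases away. It had nearly the same pattern, at 0.379, 0.330 and 0.280 CPM in the 3 dFLEx tumors, 21.9 in 3800 and 4.29 in 3802, which is under the KP minimum. Epigen (Epgn), on the other side of Ereg, was below 0.5 CPM in every tumor. The remaining ligands of the family did not share this pattern. Heparin-binding EGF-like growth factor (Hbegf) had 46.6, 36.3 and 26.3 CPM in the dFLEx tumors and 117 and 115 in KP, and Nrg1 had 8.62, 13.7 and 24 against 5.28 and 8.73. Tgfa and Egf had at least 1.43 CPM in every tumor, Nrg2 had 2.00, 1.12 and 0.353 CPM against 0.884 and 2.73, and Nrg3 and Nrg4 were at most 0.511 CPM in dFLEx and in 3800 and 2.44 and 2.20 in 3802. Of the receptors, Egfr had 8.64, 13.3 and 28.5 CPM in dFLEx and 21.5 and 16.6 in KP, and Erbb3 had 0.927, 2.01 and 1.79 against 7.40 and 15.4. These ligands and receptors outside the set were listed after values were seen and are given without a test.

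Rspo4 (chr2:151684847-151716588, + strand), whose product acts on Lgr receptors, was the most silent member. It had 0 counts in 5 dFLEx libraries and 1 count, 0.0279 CPM, in the second library of 170025, against 32.3 and 33.4 CPM in 3800 and 7.41 in 3802. With 1 count in 190157649 pooled dFLEx counts, the ratio of 3840 had a counting interval from 689 to 151663 (95%, exact Poisson on the dFLEx counts). Among its family, Rspo3 had 9.82, 5.30 and 2.84 CPM in the dFLEx tumors and 0.799 and 1.51 in KP, so the 3 dFLEx tumors were higher. Rspo1 and Rspo2 stayed at or below 3.55 CPM in every tumor. Of the receptors, Lgr6 had 1.39, 1.07 and 2.02 CPM in dFLEx, 73.1 in 3800 and 8.14 in 3802. Lgr4, at 6.81, 10.8 and 24.9 CPM against 7.29 and 5.76, and Lgr5, at 1.79, 1.21 and 2.80 against 1.85 and 6.39, overlapped between the groups.

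**Figure D3:**
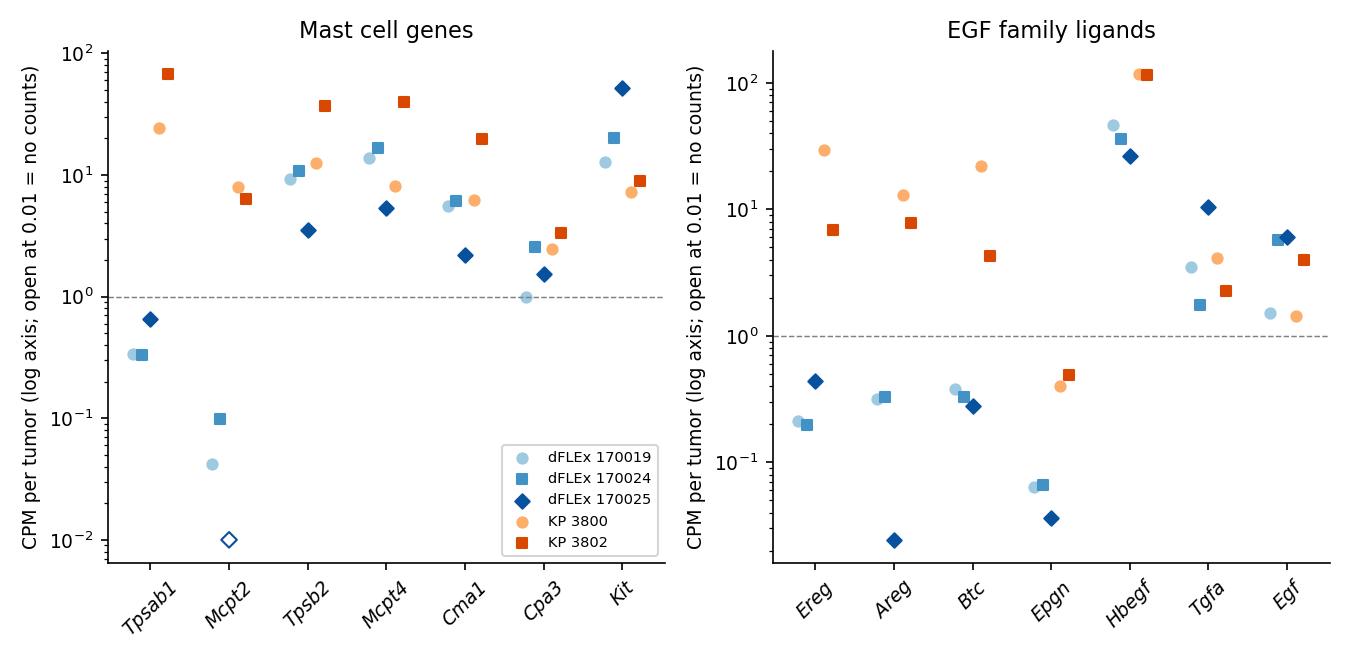
CPM per tumor on a log axis for mast cell genes (left) and ligands of the EGF family (right), with blue symbols for the 3 dFLEx tumors, orange symbols for the 2 KP tumors, an open symbol for no counts and a dashed line at 1 CPM. Tpsab1, Mcpt2, Ereg, Areg and Btc lie under 1 CPM in the dFLEx tumors, while Tpsb2, Mcpt4, Cma1 and Hbegf do not.

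Mast cell proteases were split. Tpsab1 (tryptase, also called mast cell protease 7, which some inbred mouse strains are known not to make) had 0.323 and 0.352 CPM in 170019, 0.422 and 0.219 in 170024, 0.605 and 0.726 in 170025, against 24.2 and 24.2 in 3800 and 67.6 in 3802. Mcpt2, a chymase of mucosal mast cells, had 0 and 0.0881 CPM in 170019, 0.0603 and 0.146 in 170024 and no counts in 170025, against 8.16 and 7.89 in 3800 and 6.34 in 3802. For both genes the gap between dFLEx and KP libraries follows from the rule. Other mast cell genes were present in both models. The tryptase Tpsb2, 20743 bases from Tpsab1, had 9.23, 10.8 and 3.51 CPM in the dFLEx tumors and 12.5 and 36.8 in KP, and Mcpt4, 14987 bases from Mcpt2, had 13.7, 16.7 and 5.38 against 8.11 and 40.1. The marker Cma1 had 5.60, 6.09 and 2.22 CPM against 6.27 and 19.9. The dFLEx tumors overlapped 3800 for Mcpt4 and lay below both KP tumors for Tpsb2 and Cma1. Summed over Cpa3, Kit, Mcpt4, Tpsb2 and Cma1, the mast cell markers reached 42.3 to 65.0 CPM in dFLEx, 36.7 in 3800 and 109 in 3802, with Kit alone at 12.8 to 52.3 in dFLEx. Kit was the only one of the 5 with every dFLEx tumor above both KP tumors. The other 4 had negative log2 fold changes. Tpsab1 and Tpsb2, and the Mcpt genes, are similar in sequence, and reads aligned to several places were not counted, so their split is uncertain.

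Prss22, a serine protease known from airway epithelium, had 0.162 and 0.396 CPM in 170019, 0.151 and 0.292 in 170024, 0.259 and 0.251 in 170025, against 21.9 and 22.9 in 3800 and 8.49 in 3802. It had the smallest spread between dFLEx tumors among the 3 proteases, with a mean of 0.248 ± 0.0303 CPM (SD, n = 3). Dnase1l3, a secreted nuclease made by dendritic cells and macrophages, had 0.929 and 0.925 CPM in 170019, 0.452 and 0.876 in 170024, 0.713 and 0.391 in 170025, against 7.06 and 7.23 in 3800 and 26.1 in 3802. No macrophage marker was called by edgeR after adjustment or by DESeq2. At an unadjusted edgeR p under 0.05, 4 of 8 were lower in dFLEx, where 4.93% of all genes were. Of the 8 markers, 5 had every dFLEx tumor below both KP tumors, against 15.5% of all genes. Summed over the 8 markers they reached 655 to 795 CPM in dFLEx, 1571 in 3800 and 5390 in 3802, of which C1qa alone gave 3719, while Cd163 and Cd68 overlapped between the groups. The 6 T cell markers summed to 5.09 to 7.28, 12 and 61.5 CPM. The part of these cells in the levels of Dnase1l3, Tpsab1 and Adgrg5 was not tested.

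Among the genes known from neurons, Nefl (neurofilament light chain) was the highest member, at 0.242 and 0.176 CPM in 170019, 0.241 and 0.146 in 170024, 0.605 and 0.670 in 170025, against 186 and 193 in 3800 and 58.5 in 3802. The pooled ratio was 320 (counting interval 255 to 407). Its neighbour Nefm, the medium chain, had 0.211, 0.132 and 1.07 CPM in the dFLEx tumors and 337 and 90.4 in KP, and missed the set by its level in the second library of 170025, 1.56 CPM. Exonic bases of Nefl and Nefm overlap on opposite strands. Nefh, the heavy chain, was below 1 CPM in every tumor, between 0.0856 and 0.634. Another 9 intermediate filament genes were listed beside Nefl and outside the keratins. Of these, edgeR's quasi-likelihood test called 0 in either direction after Benjamini-Hochberg adjustment over all 24743 genes tested. DESeq2 called 2 lower and 1 higher, and over all 44382 features with a count it called 602 lower and 794 higher. At an unadjusted edgeR p under 0.05, Nefm and nestin (Nes) were lower in dFLEx and Synm higher, against 4.93% and 5.65% of all genes. The median log2 fold change (dFLEx against KP) of these 9 genes was 0.29, against -0.18 over all genes tested. It turned to -0.26 without 3800 and to -0.06 when libraries were scaled by their totals, settings for which no median over all genes is given.

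Scn9a, the peripheral nerve sodium channel Nav1.7, had 0.606 and 0.485 CPM in 170019, 0.452 and 0.109 in 170024, no counts in 170025, against 23.4 and 21.8 in 3800 and 9.95 in 3802. It shares exonic bases with the antisense gene Gm13629. Grid1, a glutamate receptor of the delta type, had 0.162 and 0.264 CPM in 170019, 0.241 and 0.219 in 170024, 0.0864 and 0.446 in 170025, against 31.3 and 27.4 in 3800 and 5.07 in 3802, the lowest KP value of any member. Ly6h, a membrane-anchored regulator of nicotinic receptors, had 0.162 and 0.529 CPM in 170019, 0.0603 and 0.292 in 170024, 0.432 and 0.391 in 170025, against 5.21 and 5.54 in 3800 and 8.29 in 3802.

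Of the receptors, the orphan receptor Gpr149 had 0.565 and 0.529 CPM in 170019, 0.121 and 0 in 170024, 0.0864 and 0.0558 in 170025, against 111 and 107 in 3800 and 19.3 in 3802. Glp1r, the receptor of the incretin GLP-1, had 0.242 and 0.441 CPM in 170019, 0.965 and 0.949 in 170024, 0.0432 and 0.112 in 170025, against 22.5 and 26.5 in 3800 and 6.29 in 3802. Its dFLEx tumors were thus unlike each other, with 170024 just inside the limit of 1 CPM. The remaining receptors had at most 0.730 CPM in any dFLEx library. Adgrg5, an adhesion receptor of leukocytes, stood at 7.43 CPM in 3800 and 10.2 in 3802, the ephrin receptor Epha7 at 10.8 and 5.22, and the olfactory receptor Or6c212 at 20.2 and 5.61. Or6c212 is of the receptor class used as background above, and as a member it was left out of those 1545 genes. Its neighbours Or6c6c and Or6c213 had 0 and 0.399 CPM in 3800, where Or6c212 had 20.2, and 0.829 and 1.12 in 3802, where Or6c212 had 5.61.

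The transcription factors were Lhx8, Irx2 and Rorb. Lhx8, a LIM homeobox factor of forebrain and tooth development, had 0.0808 and 0.220 CPM in 170019, 0.0603 and 0 in 170024, 0.562 and 0.251 in 170025, against 121 and 119 in 3800 and 19.2 in 3802. Irx2, an Iroquois homeobox factor, had 0.0808 and 0 CPM in 170019, 0.181 and 0.292 in 170024, 0.605 and 0.614 in 170025, against 16.0 and 12.7 in 3800 and 18.0 in 3802. Its KP tumors were close, at 16.0 ± 2.78 CPM (SD, n = 2). The nuclear receptor Rorb had 0.929 and 0.749 CPM in 170019, 0.694 and 0.328 in 170024, 0.562 and 0.335 in 170025, against 11.2 and 9.13 in 3800 and 5.12 in 3802, the smallest ratio in the set at 13.1 (counting interval 10.9 to 15.9). Iroquois genes differed among themselves. Irx1 had 0.716, 0.925 and 1.92 CPM in the dFLEx tumors and 41.2 and 25.9 in KP, while Irx3 had 9.08, 10.4 and 26.4 against 1.30 and 3.66.

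The remaining members are enzymes, carriers and genes of less known function. Rbp2, which carries retinol in cells, had 0.162 and 0.793 CPM in 170019, 0.241 and 0.0730 in 170024, 0 and 0.0837 in 170025, against 13.8 and 14.1 in 3800 and 15.8 in 3802. Dynap, whose product binds dynactin, had 0.0808 and 0.441 CPM in 170019, 0.332 and 0.657 in 170024, no counts in 170025, against 83.4 and 87.9 in 3800 and 18.5 in 3802. Gm14137 had 0 and 0.132 CPM in 170019, 0.121 and 0.219 in 170024, 0.346 and 0.167 in 170025, against 32.2 and 35.9 in 3800 and 6.29 in 3802. These last 2 genes were over 4 times higher in 3800 than in 3802.

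Hal, which starts the breakdown of histidine, had 0.527, 0.380 and 0.0974 CPM in the dFLEx tumors, 6.46 in 3800 and 14.4 in 3802. The next gene, Amdhd1, 4034 bases away, encodes a later enzyme of the same pathway and stood at 0.0843, 0.0826 and 0 CPM against 0.913 and 1.41. Among the glycan enzymes, the polysialyltransferase St8sia2 had 0.611, 0.628 and 0.657 CPM in the dFLEx tumors, 12.4 in 3800 and 5.56 in 3802. The heparan sulfate enzyme Ndst3 had 0.569, 0.628 and 0.426 against 11.7 and 6.19, and the sulfotransferase Gal3st3 0.379, 0.363 and 0.158 against 8.91 and 6.15. All 3 glycan enzymes were higher in 3800. The membrane protein gene Tmem171 had 0.169, 0.429 and 0.268 CPM in the dFLEx tumors, 12.7 in 3800 and 7.46 in 3802.

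The KP tumors differed from each other. Of the 27 genes, 20 were higher in 3800 and 7 in 3802 (Tpsab1, Dnase1l3, Hal, Irx2, Rbp2, Adgrg5 and Ly6h). More than 2-fold differences were seen in 17, with 14 higher in 3800 and 3 in 3802 (Dnase1l3 at 3.65-fold, Tpsab1 at 2.79-fold and Hal at 2.23-fold). The farthest apart was Lhx8, 6.22-fold higher in 3800, followed by Grid1 at 5.72-fold and Gpr149 at 5.66-fold. The median log2 ratio of 3800 to 3802 was 1.04 over the members and 0.67 over the other 9517 genes on in KP, and 51.9% of members against 38.7% of those genes were more than 2-fold higher in 3800. With 1 library of 3802, this difference has no replicate check.

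**Figure D4:**
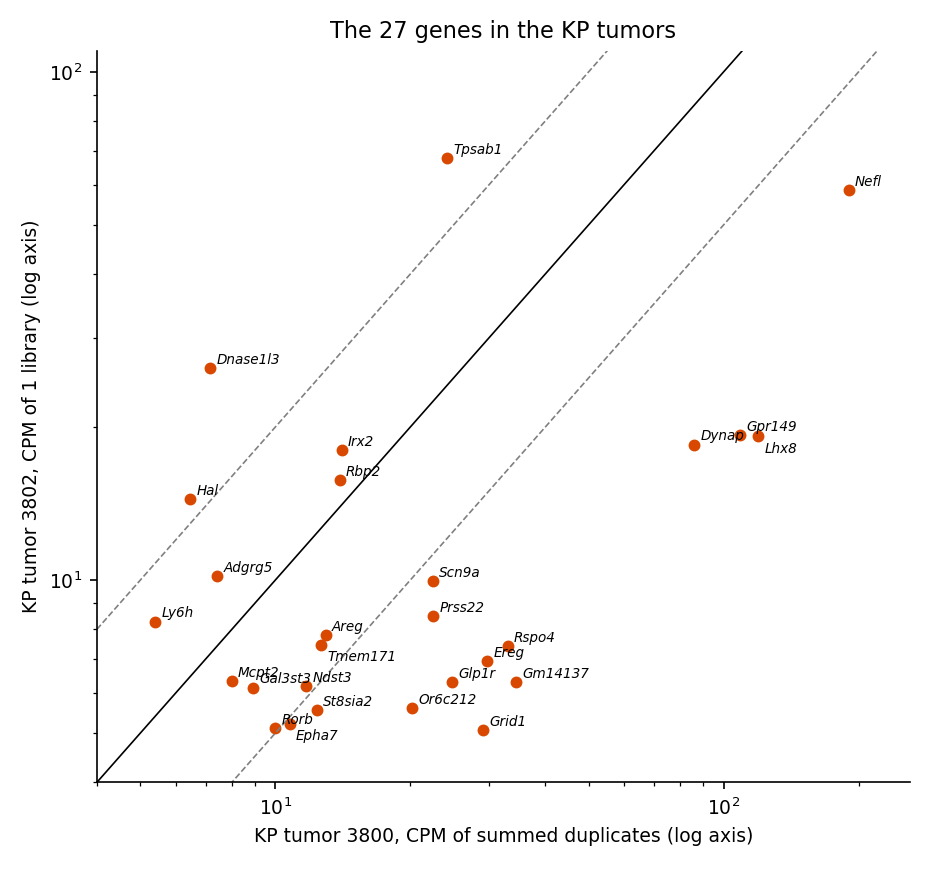
CPM of the 27 genes in KP tumor 3800 (horizontal, summed duplicates) and KP tumor 3802 (vertical, 1 library), both on log axes, with the solid line at equal levels and dashed lines at 2-fold. 14 genes lie beyond the lower dashed line and 3 (Tpsab1, Dnase1l3 and Hal) beyond the upper one.

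Near the KP minimum, the members with the lowest KP value were Grid1 (5.07 CPM in 3802), Rorb (5.12 in 3802) and Ly6h (5.21 in the first library of 3800). Just outside were Lpar3, at 14.8 and 13.1 CPM in 3800 and 4.83 in 3802, Agbl2, at 13.1, 11.9 and 4.68, and Strip2, at 5.38, 5.83 and 4.49. Their dFLEx values were at most 0.803, 0.864 and 0.844 CPM. Near the dFLEx limit, the highest values inside were 0.965 CPM for Glp1r and 0.929 for Dnase1l3 and for Rorb. Elavl2 was just outside with 1.01 CPM in the second library of 170019, Pld5 with 1.02 in the second of 170024, and the muscle factor Myf5 with 1.02 in that same library. Myf5 otherwise had the pattern, at 55.2 and 51.7 CPM in 3800, 26.6 in 3802 and 0.121 to 0.543 in the other dFLEx libraries. The values on either side of each limit were therefore alike.

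The fit over all genes is given for scale. With counts summed per tumor, edgeR called 4 of the 27 members lower in dFLEx at an adjusted p under 0.05 (Rspo4, Nefl, Tpsab1 and Prss22), where 0.0808% of 24743 genes tested were called lower. The tumors of the 2 groups did not overlap for any member by the rule's own construction, and this held, with dFLEx lower, for 15.5% of all genes tested. Nothing is read from either count. The fitted log2 fold changes of the members ran from -11.25 to -3.34 (median -5.56).

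Genes sharing a symbol stem with a member were not chosen by their values and could be tested. For 15 members a stem shared by at most 60 genes gave 108 relatives, alike in symbol and not always in function, of which 83 passed the filter on low counts. After adjustment edgeR called 0 relatives lower and 0 higher, where 0.0808% and 0.101% of all genes were called in these directions. DESeq2, run on the same tumor sums, called 5 lower and 8 higher, and 602 lower and 794 higher over all 44382 features with a count. At an unadjusted p under 0.05, 7 relatives were lower in dFLEx (8.43%, against 4.93% of all genes) and 13 were higher (15.7%, against 5.65%). Every dFLEx tumor lay below every KP tumor for 14 relatives (16.9%, against 15.5% of all genes) and above for 15 (18.1%, against 10.0%). The median log2 fold change of the relatives was -0.50, against -0.18 over all genes. It turned to 1.69 without 3802 and was -0.57 without 3800. The median over all genes was not computed for fits with a tumor left out, so this shift cannot be set against a background.

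Among the 7 relatives that were lower at an unadjusted p under 0.05 were Irx1 (log2 fold change -4.57 ± 0.71 SE, edgeR adjusted p 0.0744), Adgrg6, Prss41, Prss56, Ndst4 and Epha1. Adgrg6, a receptor of Schwann cells and other tissues, had 1.01, 1.14 and 1.45 CPM in dFLEx against 59.1 and 11. Higher in dFLEx by the same measure were 13, with Adgrg2 at 16.5, 12.7 and 27.4 CPM against 1.04 and 1.37, Grid2ip at 2.38, 6.28 and 19.4 against 0.0143 and 0, and Rbp7 at 90.1, 18.8 and 13 against 0.756 and 8.54.

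**Figure D5:**
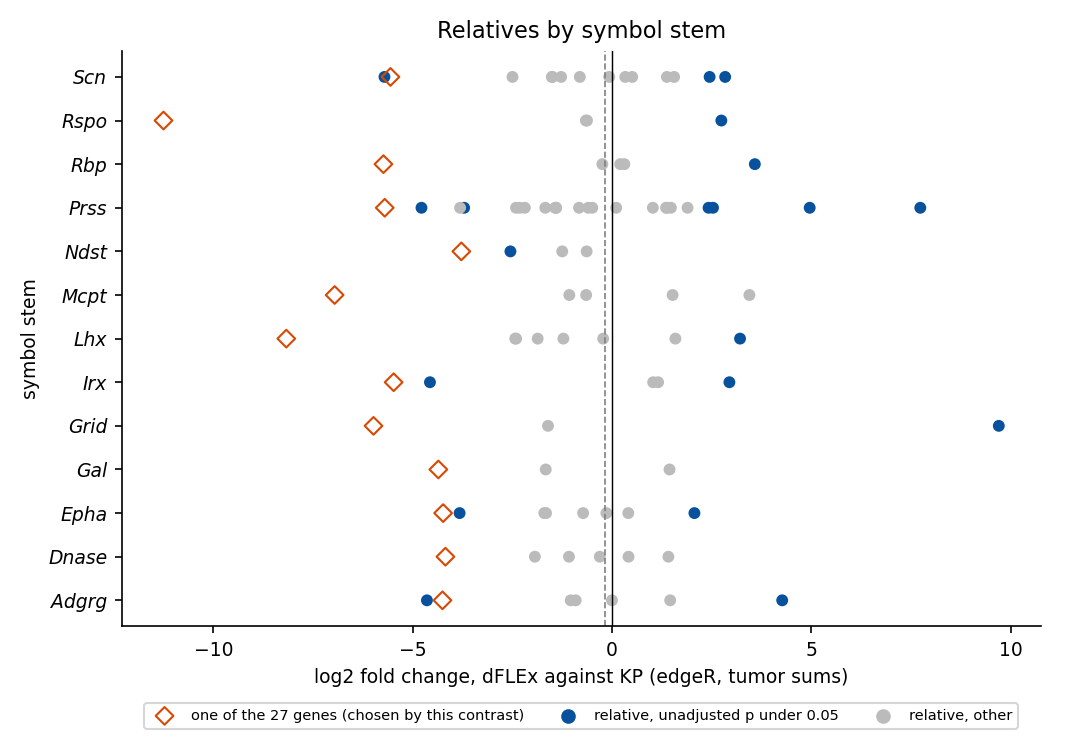
Log2 fold change (dFLEx against KP, edgeR on tumor sums) of the tested relatives of members by symbol stem, as filled points, blue for an unadjusted p under 0.05 and grey otherwise, and of the members of the same stem as open diamonds. The dashed line is the median of all genes tested, -0.18, and relatives lie on both sides of it, while the diamonds are lower by the choice of genes.

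The nearest protein-coding gene on either side of each member was taken among genes that do not overlap it, so Nefm, which overlaps Nefl, and Dnajc17, which overlaps Gm14137, were not counted. Of 52 such genes that are not members, 46 passed the filter, and edgeR called none lower and none higher after adjustment. DESeq2 called 4 lower and 1 higher, where 602 and 794 of 44382 features were called in these directions. At an unadjusted p under 0.05, 8 were lower (17.4%, against 4.93% of all genes) and 2 were higher (4.35%, against 5.65%). Every dFLEx tumor lay below every KP tumor for 14 of them (30.4%, against 15.5%) and above for 4 (8.70%, against 10.0%). Their median log2 fold change was -0.45 with all tumors, -0.48 without 3802 and 0.35 without 3800, the last 2 without a median over all genes to set beside them. The 8 lower neighbours were Gchfr, Tram1l1, Btc, Amdhd1, Irx1, Dnah8, 4930503L19Rik and Anxa1. Gchfr, 2119 bases from Gm14137, regulates the first enzyme of tetrahydrobiopterin synthesis and had 14.1, 10.3 and 2.73 CPM in the dFLEx tumors against 68.6 and 112. Tram1l1, 630002 bases from Ndst3, had 1.10, 1.16 and 0.925 against 13.2 and 6.34. Anxa1, beside Rorb, had 118, 99.99 and 159 CPM against 1193 in 3800 and 149 in 3802, so it did not separate the groups. Most neighbours did not share the pattern: Sf3b2, 2876 bases from Gal3st3, had 200.1 to 298 CPM in dFLEx and 273 and 228 in KP.

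Other gene groups gave the context. Of 5 simple epithelial keratins, edgeR called Krt8 and Krt18 lower in dFLEx after adjustment, with log2 fold changes of -6.40 ± 0.85 SE (adjusted p 0.0480) and -7.20 ± 0.75 SE (adjusted p 0.0335). Krt8 had 1.14, 0.859 and 0.402 CPM in the dFLEx tumors and 117 and 46.9 in KP, and Krt18 had 1.33, 1.45 and 0.584 against 225 and 181. Of 9 epithelial junction genes tested, 10 neuronal and neuroendocrine genes, 4 basal keratins, 12 RAS pathway output genes and 10 limb factors, edgeR called none in either direction after adjustment. DESeq2 called 2 junction genes, 1 neuronal gene and 1 RAS output gene lower, and 1 RAS output gene and 1 limb factor higher. Its calls over all 44382 features with a count were 602 lower and 794 higher. At an unadjusted edgeR p under 0.05, 2 junction genes, 1 neuronal gene and 1 RAS output gene were lower, against 4.93% of all genes. Higher were 1 junction gene, 3 RAS output genes and 2 limb factors, against 5.65%. The neuronal gene was Stmn2, at 3.75, 5.30 and 2.40 CPM against 297 and 74.1. Every dFLEx tumor lay below both KP tumors for 5 junction, 4 neuronal, 1 RAS output and 1 limb gene, against 15.5% of all genes. Every dFLEx tumor lay above for 1, 0, 3 and 2 of them, against 10.0%. The medians of these lists moved with the libraries in the fit, and no median over all genes was computed without 3802 to compare them with. That of the neuronal genes was -1.29 with all tumors and 1.09 without 3802, that of the limb factors -0.68 and 0.19, that of the basal keratins -1.54 and 3.76, that of the junction genes -2.03 and -0.38, and that of the RAS output genes 1.03 and 0.71.

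Of the 13 lists of cell type markers, the chondrocyte list held the only gene that edgeR called after adjustment, 1 of 6 and higher in dFLEx. DESeq2 called 3 chondrocyte, 2 myocyte, 1 endothelial and 1 Schwann cell marker higher and 1 T cell marker lower. Among all 44382 features with a count it called 794 higher and 602 lower. Muscle fibre markers were higher in dFLEx at an unadjusted p under 0.05 for 6 of 9, where 5.65% of all genes were, and summed to 8589, 36189 and 9867 CPM in dFLEx against 1776 and 6056. B cell markers summed to 3.13 to 5.65 CPM in dFLEx, 2.35 in 3800 and 41.7 in 3802. The keratinocyte sums were 37.9, 13.4 and 6.48 CPM in dFLEx, 7.36 in 3800 and 39.2 in 3802. All 6 T cell markers had a negative log2 fold change, and edgeR gave 4 of them an unadjusted p under 0.05. Lower calls at that limit were 4.93% of all genes. The same 4 had every dFLEx tumor below both KP tumors, as did 15.5% of all genes. The defining marker Cd3e was not among these 4. It stood at 1.45, 1.54 and 0.548 CPM in the dFLEx tumors, 1.24 in 3800 and 11.3 in 3802, so 2 dFLEx tumors lay above 3800. The part of these cell types in the levels of the 27 genes was not tested.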

How the data were processed

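The authors trimmed paired-end reads of rRNA-depleted libraries with Trimmomatic 0.39, aligned them with STAR 2.7.10a to mm39 (GRCm39) with an added CIC::DUX4 contig, and deposited raw counts per gene from featureCounts (Subread 2.0.3), without strand and without reads aligned to several places. Each mate counts as a read, so counting error is larger than totals imply.

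Symbols and biotypes were joined from GENCODE M39 by identifier (98.7% of features). CPM used library totals. Counts were summed per tumor, filtered with filterByExpr, scaled by TMM and compared with edgeR 4.0.16 (R 4.3.3) glmQLFit and glmQLFTest, with Benjamini-Hochberg adjustment over all genes tested and a threshold of 0.05. The log2 fold change of a gene was higher with TMM than with scaling on totals, by a median of 0.30 over genes. DESeq2 1.42.0 on the same sums was an alternative, as were other scalings, filters, limits and left-out tumors. The edgeR script was run on simulated counts with the same fixed spread for every gene, which checks the code and not its power on these tumors. Tables and figures used Python 3.11.15, pandas 2.3.3 and matplotlib 3.10.9. The members and gene lists were chosen with earlier results of these data known. All members were named; values in every library went to the 12 highest by geometric mean KP level and to those nearest the limits, and to a few others chosen after their values were seen. Some items are not reported here.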

Additional observations from a re-analysis of the deposited data

How the results depend on the processing

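The number of genes meeting the rule was 27 and moved with the limits, to 7 with a KP minimum of 10 CPM, 58 with 3 CPM, 9 with a dFLEx limit of 0.5 CPM and 57 with 2 CPM. It was 22 on TMM-scaled and 23 on size-factor-scaled totals, and with a tumor left out it ranged from 30 to 90, with 90 without 3802 and 76 without 3800. Raising the KP minimum by 10 times the receptor level, chosen after seeing the data, left 13, and subtracting that level before the rule gave 24, of which 22 were members. edgeR called 45 genes over the whole table, 880 with no filter on low counts, and 1396 with DESeq2. Taking the 9 libraries as independent samples gave 3344, and 2476 with the replicate number as a block. With a tumor left out the count ranged from 0 to 414, with 0 without 170019 or 170024, 9 without 170025, 8 without 3800 and 414 without 3802. The unadjusted counts without 170019 and 170024 were 1939 and 1414. Relatives called rose from 0 to 10 with no filter, 13 with DESeq2, 18 over libraries and 13 with the replicate block, and ranged from 0 to 4 with a tumor left out. Members called were 4, and ranged from 0 to 22 with a tumor left out, 22 without 3802 and 1 without 3800. The causes were not tested. Library numbers did not pair across tumors: differences between duplicates correlated at -0.028 to 0.032 over 18595 genes. The block could therefore carry no pairing. With 3 dFLEx and 2 KP tumors, and 1 library of 3802, small differences were not detectable.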

Other observations

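A further 11 features had the same levels but were not autosomal protein-coding genes. They were Ptchd1 on the X chromosome, the long noncoding RNAs AI606473, Gm35113 and Gm36496, the processed pseudogenes Gm6123, Gm8210, Gm12751 and Gm5801, the transcribed processed pseudogenes Rnps1-ps and Gm10819, and 1 identifier without an annotated gene. AI606473 starts 162 bases from Lhx8 on the opposite strand and had 0.421, 0.132 and 0.280 CPM in the dFLEx tumors, 41.1 in 3800 and 6.29 in 3802, and Lhx8 had 0.147, 0.0330 and 0.426 against 120 and 19.2. Ptchd1 had 0.442, 0.297 and 0.183 CPM in the dFLEx tumors, 22.6 in 3800 and 15.5 in 3802. Gm8210 had 0.147, 0.149 and 0.219 CPM against 43.1 and 9.95. Reads of processed pseudogenes can belong to their parent genes or to other copies, and reads aligned to several places were not counted.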
